A study of Mus musculus with 34 samples.

Results

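Resting macrophages carry many sites at which several AP-1 subunits are found together, and a minority of these sites have no PPARγ peak. The 1878 loci described here held a peak of ATF3, of Jun and of JunD in vehicle-treated (Veh) C57BL/6 cells, lacked a peak of at least 1 AP-1 monomer after activation, and overlapped no PPARγ peak. The loci were chosen by the measured peak calls of these 10 C57BL/6 lists, so those calls are described and not tested. They were found by joining the peaks of the 3 Veh lists that overlapped by at least 1 bp, which gave 29552 loci, of which 10558 had all 3 monomers. Of those 10558, another 5012 also lacked at least 1 KLA peak but overlapped a PPARγ peak and are called the PPARγ-bound counterparts. The other 3668 had a peak of all 6 monomers after KLA and are called the fully KLA-bound loci, and 590 of these had no PPARγ peak. The 1878 loci are called the PPARγ-free loci.

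The cells were thioglycollate elicited macrophages (TGEMs), which are collected from the mouse peritoneum after an injection of an irritant broth and cultured. All samples came from male mice, and the study's methods give an age of 8 weeks for C57BL/6 and BALB/cJ but none for the knockout. Cells of C57BL/6 (labelled C57Bl/6EiJ) and of BALB/cJ mice received Veh, which was PBS, or 100 ng/mL KLA (Kdo2 lipid A, a ligand of the receptor TLR4) for 1 h. Cells of PPARγ knockout mice (labelled PPARgKO on C57Bl6) received only Veh, and the Cre line or promoter behind that knockout, and the cells it affects, are not given in the sources used here. Binding was measured by ChIP-seq, in which an antibody recovers the DNA that a protein occupies, and positions with an excess of sequenced fragments are called as peaks. C57BL/6 lists covered ATF3, Jun, JunD, Fos, FosL2 (labelled Fra2), JunB, PU.1 and CEBPα with both treatments and PPARγ with Veh. BALB/cJ lists covered the same AP-1 monomers except FosL2, and knockout lists covered ATF3, Jun and JunD. Replicate experiments were combined by the authors into 1 list per condition (no replicates), so a p-value below counts loci and does not measure variation between mice or cultures.

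AP-1 proteins bind DNA as dimers through a basic leucine zipper and share a short palindromic site, the TRE. Jun proteins can pair with each other, while Fos proteins do not pair among themselves and need a partner from another AP-1 group. Fos itself is induced within minutes of a Toll-like receptor signal. ATF3 pairs with Jun proteins and also reads the longer CRE. PU.1 and CEBPα are the factors that open macrophage and myeloid enhancers, and PPARγ is a nuclear receptor that drives lipid uptake and storage genes in macrophages.

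Sequence of 7 loci is shown to make the motif content of these sites visible, each in the forward strand of GRCm38, the assembly equal to mm10. Capitals mark every match to the TRE (TGACTCA), the CRE (TGACGTCA) or the CEBP-ATF composite site (TGATGCAA), searched on both strands. The locus nearest March5, at chr19:37255446-37255645, was the PPARγ-free locus with the strongest shared Veh binding and lacked only FosL2 after KLA. The locus nearest Kcnj16, at chr11:110702238-110702437, was the strongest with no KLA peak, and that nearest Cubn, at chr2:13417211-13417410, the strongest that kept ATF3, Jun and JunD without Fos, FosL2 or JunB. The locus nearest Cldn14, at chr16:93913976-93914175, was the strongest with no knockout peak, and that nearest Sik1, at chr17:31834743-31834942, the strongest with no BALB/cJ Veh peak. For Ifitm6, the strongest at a transcription start site (TSS), only the TRE with 11 bases on each side is given, at chr7:141016824-141016852. A distal locus upstream of Pparg, at chr6:115315887-115316086, was chosen after its values were seen because it belongs to the gene of PPARγ itself.
March5: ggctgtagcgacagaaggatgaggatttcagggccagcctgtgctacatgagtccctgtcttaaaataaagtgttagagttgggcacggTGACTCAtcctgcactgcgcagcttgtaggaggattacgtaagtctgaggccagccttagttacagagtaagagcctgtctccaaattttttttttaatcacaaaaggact
Kcnj16: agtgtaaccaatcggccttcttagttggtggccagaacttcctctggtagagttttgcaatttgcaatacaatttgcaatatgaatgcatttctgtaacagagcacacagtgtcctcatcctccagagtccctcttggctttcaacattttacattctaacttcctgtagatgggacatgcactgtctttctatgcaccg
Cubn: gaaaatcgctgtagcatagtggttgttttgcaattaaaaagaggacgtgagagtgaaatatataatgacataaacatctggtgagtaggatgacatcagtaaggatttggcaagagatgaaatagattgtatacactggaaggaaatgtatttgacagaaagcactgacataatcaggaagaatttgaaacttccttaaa
Cldn14: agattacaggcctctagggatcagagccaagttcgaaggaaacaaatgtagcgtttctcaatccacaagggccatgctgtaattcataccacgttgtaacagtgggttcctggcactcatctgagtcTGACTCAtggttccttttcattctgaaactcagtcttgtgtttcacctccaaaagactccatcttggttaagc
Sik1: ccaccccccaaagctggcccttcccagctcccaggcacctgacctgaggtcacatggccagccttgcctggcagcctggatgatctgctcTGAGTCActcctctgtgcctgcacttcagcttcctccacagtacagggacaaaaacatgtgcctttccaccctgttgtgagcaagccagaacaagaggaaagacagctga
Ifitm6: ggcactggagcTGAGTCAggatccctctt
Pparg: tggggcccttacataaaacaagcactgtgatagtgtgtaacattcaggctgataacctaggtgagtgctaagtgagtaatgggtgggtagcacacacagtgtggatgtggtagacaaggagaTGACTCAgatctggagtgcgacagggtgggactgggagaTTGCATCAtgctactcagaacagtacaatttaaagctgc

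The March5, Cldn14 and Sik1 loci each held 1 TRE, the Pparg locus held 1 TRE and 1 composite site, and the Kcnj16 and Cubn loci held none of the 3 sites in these letters. The Kcnj16 locus instead held 2 matches to the PU.1 site ACTTCCT and the Cubn locus 1.

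The values that define the PPARγ-free loci are given as a description. The deposited lists give a tag count for every peak, which is not scaled to library size, so counts were compared only within a list, as a percentile of its peaks. The ATF3 Veh count of the PPARγ-free loci ran from 26 to 262 with a median of 63, the Jun count from 12 to 93 with a median of 25, and the JunD count from 27 to 164 with a median of 49. These medians sat at the 57.6, 48.5 and 48.2 percentiles of their lists, which places the typical PPARγ-free locus in the middle of each list. The PPARγ-bound counterparts had medians of 74, 29 and 61, and the fully KLA-bound loci had medians of 114.5, 41 and 89. A count in the top 10% of a list was found for 124 of the PPARγ-free loci in ATF3 (6.60%), 50 in Jun (2.66%) and 49 in JunD (2.61%). Since these counts differ between the classes, comparisons below are also given within 10 bins of the Veh count. For knockout and BALB/cJ peaks the bins use the Veh count of the same monomer. For all other measures they use the lowest of the 3 Veh percentiles of a locus.

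The 3 monomers sat close together. Their peak centres lay within 50 bp of each other at 1307 of the PPARγ-free loci (69.6%), with a median span of 36 bp, and a locus was 279 bp wide at the median. The centres of ATF3 and JunD were 18 bp apart at the median, those of ATF3 and Jun 22 bp, and those of Jun and JunD 24 bp. Only 9 loci (0.479%) joined more than 3 peaks.

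Around the limit set by the PPARγ list, the PPARγ-free locus nearest to a PPARγ peak lay 20894 bp upstream of Klf6, a zinc finger factor of myeloid cells, at chr13:5840417-5840759, and abutted that peak with a gap of 0 bp. The next were 2 bp away, near Hnrnpa1, and 5 bp away, near Nek6. On the other side, the counterparts with the smallest overlap shared 5 bp near Dppa3, 10 bp near Dync1h1 and 13 bp near Igf1. Such cases were few, since 50 PPARγ-free loci (2.66%) had a PPARγ peak edge within 100 bp and 8 counterparts (0.160%) overlapped by 20 bp or less. A PPARγ peak lay within 1 kb of 429 PPARγ-free loci (22.8%), and 670 (35.7%) had none within 10 kb.

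After KLA, peaks of ATF3 and JunD were listed at most of the PPARγ-free loci, and peaks of FosL2 and JunB at a minority. A KLA peak of ATF3 was present at 1711 of the 1878 loci (91.1%, 95% Wilson interval 89.7 to 92.3), against a background of 73.6% over all 29552 Veh loci. JunD followed with 1565 loci (83.3%, background 67.2%), Fos with 1214 (64.6%, background 52.8%) and Jun with 982 (52.3%, background 44.1%). JunB was present at 522 loci (27.8%, background 33.4%) and FosL2 at 359 (19.1%, background 26.8%). The lengths of these lists had the same order as the shares, from 10619 peaks (FosL2) and 13375 (JunB) through 17480 (Jun) and 24365 (Fos) to 31640 (JunD) and 36745 (ATF3). With each KLA list cut to 10619 peaks by count, a setting chosen after seeing the data, the shares were 39.2% for ATF3, 32.6% for Jun, 31.2% for JunD, 29.2% for Fos, 21.6% for JunB and 19.1% for FosL2. These lists chose the loci, since a locus with all 6 was left out, so the shares are a description and nothing is read from their distance to the background.

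In the number of KLA lists, 563 loci (30.0%) held 5 of the 6 KLA peaks, 461 (24.5%) held 4, 345 (18.4%) held 3, 243 (12.9%) held 2 and 173 (9.21%) held 1. No KLA peak was found at 93 loci (4.95%, 95% interval 4.06 to 6.03), beside 19.4% of all Veh loci. The most frequent combination was all monomers but FosL2, at 326 loci (17.4%), followed by ATF3, Jun, JunD and Fos without FosL2 or JunB at 258 (13.7%), and by all but JunB at 182 (9.69%). ATF3 and JunD alone were left at 176 loci (9.37%), ATF3 alone at 135 (7.19%), and ATF3, Jun and JunD with no Fos, FosL2 or JunB at 120 (6.39%). Where a single monomer was missing, it was FosL2 in 326 of 563 loci (57.9%), JunB in 182 (32.3%) and Jun in 45 (7.99%).

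**Figure D1:**
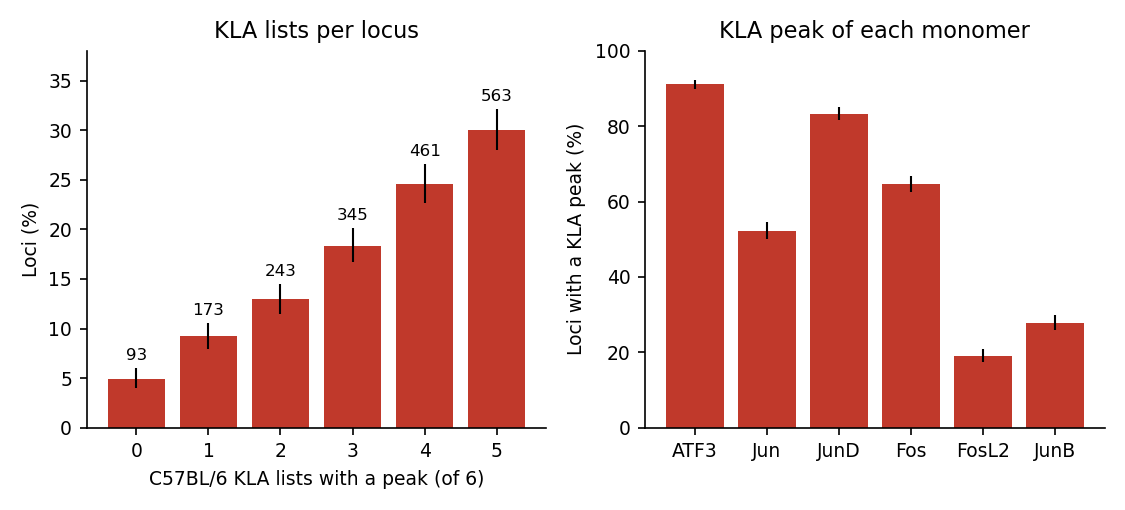
KLA fate of the 1878 PPARγ-free loci in C57BL/6 TGEMs. The left panel gives the percentage of loci (y axis) by the number of KLA lists with a peak (x axis), with the number of loci above each bar, and the right panel the percentage with a KLA peak of each monomer; lines are 95% Wilson intervals. The bars run from 4.95% with no KLA list to 30.0% with 5 lists, and from 19.1% for FosL2 to 91.1% for ATF3.

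Loci that lacked the KLA peak of a monomer had the weaker Veh peaks of that monomer. The median ATF3 Veh count was 43 at the 167 loci without an ATF3 KLA peak and 66 at the 1711 with one. For Jun the medians were 23 at 896 loci and 28 at 982, and for JunD 41 at 313 loci and 51 at 1565. The interquartile ranges of the groups overlapped for every monomer, from 34.5 to 55 against 48 to 89 for ATF3.

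The BALB/cJ KLA lists did not enter the selection, but the C57BL/6 KLA calls that split the loci here did, so these shares are a description with no test. Loci with a C57BL/6 KLA peak of ATF3 had a BALB/cJ KLA peak of ATF3 in 1549 of 1711 cases (90.5%), and those without it in 76 of 167 (45.5%), a difference of 45.0 percentage points (95% Newcombe interval 37.3 to 52.5). The difference was 41.0 points for JunD (35.1 to 46.5), 30.1 for Fos (26.3 to 34.0), 25.6 for Jun (21.5 to 29.6) and 24.0 for JunB (19.2 to 28.4). Over all 29552 Veh loci, the same differences were 57.01 points for ATF3, 55.3 for JunB, 52.7 for JunD, 47.9 for Fos and 41.7 for Jun. The difference was smaller at the PPARγ-free loci for each of the 5 monomers. The selection left out the fully KLA-bound loci and kept only loci with Veh peaks of ATF3, Jun and JunD. All Veh loci had neither limit, so nothing is read from the smaller values, which were not tested. The background shares of all Veh loci with a BALB/cJ KLA peak were 71.7% for ATF3, 29.5% for Jun, 63.5% for JunD, 72.1% for Fos and 47.2% for JunB.

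Loci with no C57BL/6 KLA peak were not all empty in BALB/cJ. Of these 93, 48 (51.6%) had a BALB/cJ KLA peak of at least 1 of the 5 monomers, although only 1 had all 5. Of the 563 loci with 5 C57BL/6 KLA peaks, 551 (97.9%) had at least 1 and 268 (47.6%) had all 5. The Fos peak shows the contrast within a single monomer. It was present in BALB/cJ at 430 of the 664 loci without it in C57BL/6 (64.8%), and the BALB/cJ Fos KLA list was the longer of the pair, with 40459 peaks against 24365.

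**Figure D2:**
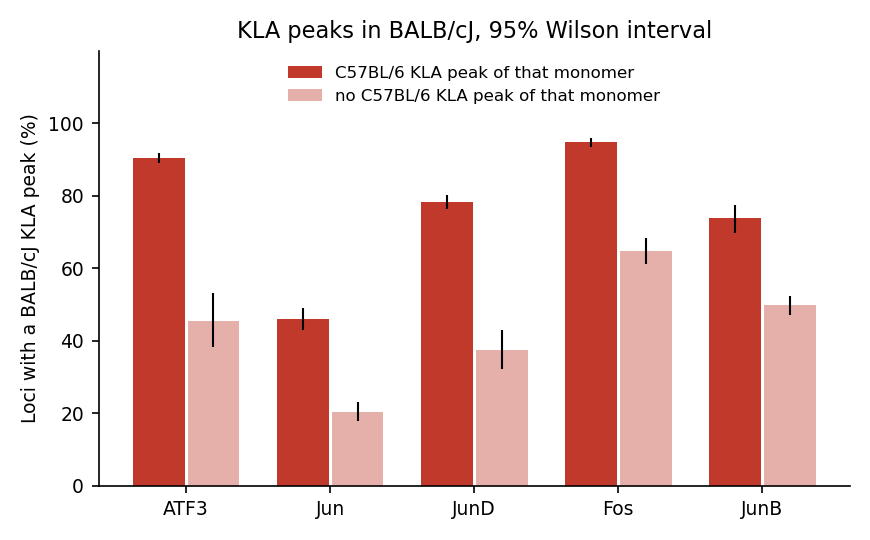
Percentage of the PPARγ-free loci with a BALB/cJ KLA peak (y axis) for 5 monomers (x axis), split by whether the locus had the C57BL/6 KLA peak of that monomer (dark bars) or not (light bars); lines are 95% Wilson intervals. The dark bar is higher for each monomer, by 24.0 percentage points for JunB to 45.0 for ATF3.

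The strongest PPARγ-free loci were mostly distal and had peaks of most AP-1 monomers after KLA. The locus nearest March5, a ubiquitin ligase of mitochondria, lay between genes 47977 bp downstream of the TSS, at chr19:37255409-37255682. Its Veh counts were 211 for ATF3, 85 for Jun and 164 for JunD, and its KLA counts were 331, 64 and 651, with 103 for Fos and 39 for JunB. The knockout counts there were 122, 18 and 149, and the BALB/cJ Veh counts 76, 44 and 100, so it was present in each list of the 3 monomers. The locus in an intron of Ankrd28, a subunit of a protein phosphatase, had Veh counts of 213, 72 and 153 and differed in carrying FosL2 (count 106) in place of JunB after KLA. It lacked the knockout Jun peak, while its BALB/cJ Fos KLA peak had a count of 351.

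The other loci among the 8 strongest lay 16960 bp upstream of the TSS of Tbk1, a kinase of innate interferon signalling, and near Rims2, a presynaptic protein, Stap1, a signalling adaptor, Rptor, a subunit of mTORC1, Ifitm6, of a family of interferon-induced membrane proteins, and Tfec, a factor of the MiT family made in macrophages. The locus nearest Tbk1 had Veh counts of 165, 84 and 120 and, like that in Rptor with 160, 59 and 111, lacked FosL2 alone after KLA. The loci near Rims2 (158, 63 and 125) and in Stap1 (222, 75 and 114) lacked JunB alone. The locus in Tfec had Veh counts of 217, 61 and 109 and lacked both FosL2 and JunB. The 8 loci had all 3 BALB/cJ Veh peaks, and 2 of them, those near March5 and in Tfec, had all 3 knockout peaks. The Rptor locus was the only one of the 8 without a knockout ATF3 peak, although its wild-type ATF3 count was 160.

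The strongest loci without any KLA peak were weaker. The one nearest Kcnj16, a potassium channel gene whose TSS was 265696 bp away, had Veh counts of 90, 30 and 59 for ATF3, Jun and JunD, and in KLA still carried PU.1 (count 33) and CEBPα (count 57). The locus 52252 bp upstream of Nmd3, an export adaptor of the large ribosomal subunit, had counts of 77, 28 and 65, and had all 3 BALB/cJ Veh peaks but no BALB/cJ KLA peak. The locus upstream of Naa20, a subunit of an N-terminal acetyltransferase, had counts of 65, 30 and 51 and lay 125 bp from a PPARγ peak. In BALB/cJ KLA it carried ATF3 (count 35) and Fos (count 29).

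Among loci that kept ATF3, Jun and JunD and had no Fos, FosL2 or JunB, the strongest lay in an intron of Cubn, a receptor for vitamin B12 with its carrier. Its Veh counts were 220, 46 and 110 and its KLA counts 315, 65 and 605. The next lay 29204 bp upstream of Dennd4c, a Rab exchange factor, with Veh counts of 262, 46 and 80, the highest ATF3 count of the PPARγ-free loci. The third lay in Lpp, a focal adhesion gene, with counts of 94, 38 and 76. The 3 loci carried BALB/cJ KLA peaks of Fos, with counts of 191, 108 and 129, and of JunB, with counts of 129, 42 and 59. The absence of Fos and JunB in C57BL/6 was thus not seen in BALB/cJ, which had no FosL2 list. The BALB/cJ KLA lists were longer, with 40459 peaks against 24365 for Fos and 21667 against 13375 for JunB. Of all PPARγ-free loci without the C57BL/6 KLA peak, 64.8% had the BALB/cJ KLA peak for Fos and 49.8% for JunB.

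In PPARγ knockout TGEMs, most of the PPARγ-free loci kept ATF3, and fewer kept JunD or Jun. A knockout peak of ATF3 was present at 1510 loci (80.4%, background 70.1%), of JunD at 792 (42.2%, background 43.3%) and of Jun at 257 (13.7%, background 13.8%). The background is not of like loci, because the PPARγ-free loci have all 3 wild-type Veh peaks by selection. Of all Veh loci, 78.3% had a wild-type Veh peak of ATF3, 66.4% of JunD and 52.6% of Jun. The knockout ATF3 list held 28318 peaks, the JunD list 19355 and the Jun list 4290, the same order as the knockout shares of the PPARγ-free loci. With every list cut to 4290 peaks by count, the shares were 15.0%, 11.7% and 13.7%. At least 1 knockout peak was found at 1602 loci (85.3%), all 3 at 158 (8.41%) and none at 276 (14.7%). All 3 were found at 19.6% of the PPARγ-bound counterparts and 41.5% of the fully KLA-bound loci, and none at 5.97% and 2.70%. These combined shares were not counted over all Veh loci. Among the PPARγ-free loci, ATF3 alone was the most frequent outcome, at 720 loci (38.3%), and ATF3 with JunD the next, at 555 (29.6%). Knockout TGEMs had no PPARγ list, so the loss of the protein could not be checked in these data.

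The PPARγ-free loci had knockout peaks less often than the PPARγ-bound counterparts did. For JunD the share was 42.2% against 63.0%, a difference of -20.9 percentage points (-23.5 to -18.3, Fisher's exact test, adjusted p = 5.58e-53). For Jun it was 13.7% against 24.9% (-11.2 points, -13.1 to -9.17, exact test, adjusted p = 2.22e-24), and for ATF3 80.4% against 90.1% (-9.72 points, -11.7 to -7.79, adjusted p = 8.98e-25). Within bins of the Veh count of the same monomer, the odds of a knockout peak remained lower, with odds ratios of 0.552 for JunD (0.493 to 0.619), 0.649 for Jun (0.555 to 0.759) and 0.560 for ATF3 (0.480 to 0.654). The differences from the fully KLA-bound loci were larger, at -32.8 points for JunD, -33.3 for Jun and -15.2 for ATF3, and with only the 590 of these without a PPARγ peak, a comparison chosen after seeing the data, they were -7.83, -10.04 and -8.24 points.

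**Figure D3:**
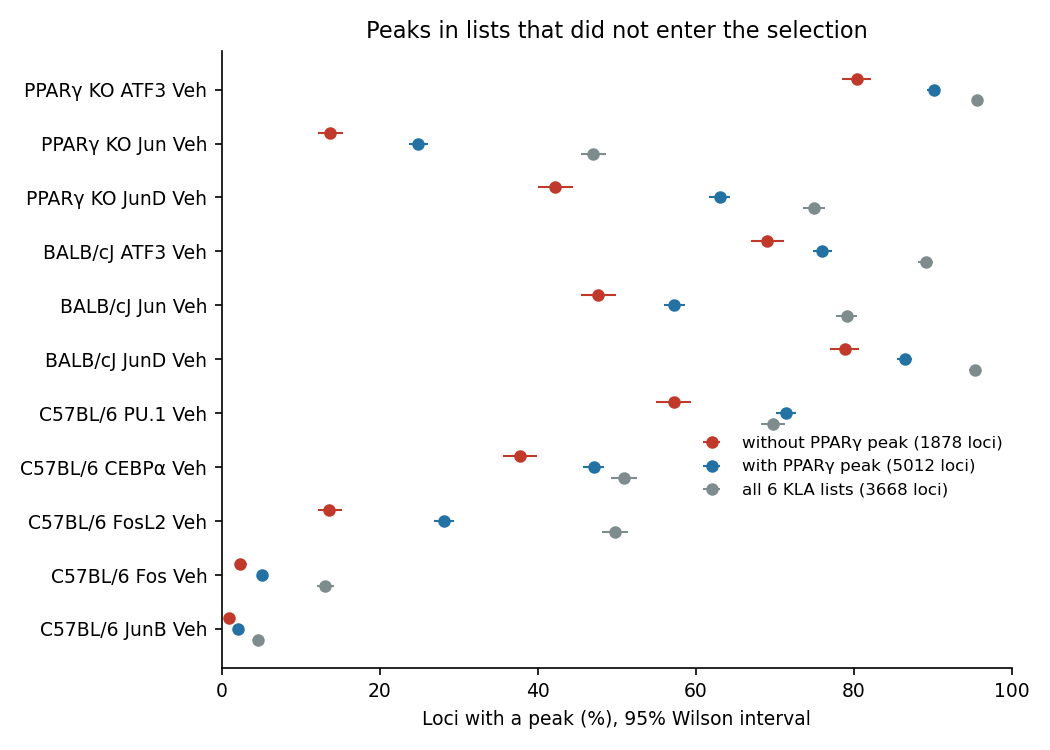
Percentage of loci with a peak (x axis) in 11 lists that did not enter the selection (y axis), for the PPARγ-free loci (red), the PPARγ-bound counterparts (blue) and the fully KLA-bound loci (grey); lines are 95% Wilson intervals. The red point is the lowest in each list, for example 42.2%, 63.0% and 74.97% for knockout JunD.

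The share with a knockout peak depended on the strength of the wild-type peak. With the PPARγ-free loci split into 4 equal groups by ATF3 count, in the group with the highest (87 to 262), 93.8% had a knockout ATF3 peak, and in the group with the lowest (26 to 46), 63.8%. For JunD these shares were 61.3% and 27.2%, and for Jun 29.8% and 3.62%. Most of the strongest Jun peaks thus had no peak in the short knockout Jun list. The share with a BALB/cJ Veh peak of the same monomer also rose, from 43.0% in the lowest group to 91.5% in the highest for ATF3. It rose from 64.7% to 92.1% for JunD and from 26.2% to 73.6% for Jun.

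Of the loci with no knockout peak, the strongest lay between genes, 15492 bp downstream of a TSS of Cldn14, a tight junction gene. It had Veh counts of 136, 42 and 100 for ATF3, Jun and JunD, all 3 BALB/cJ Veh peaks (86, 39 and 74) and 5 of the 6 KLA peaks. The next were upstream of Trdmt1, a tRNA methyltransferase, with counts of 95, 38 and 84, and near Gadd45b, a stress response gene, with counts of 101, 35 and 86. PPARγ peaks lay close to these loci, with gaps of 167, 872 and 106 bp. Across all 276 loci with no knockout peak, 93 (33.7%, 28.4 to 39.5) had a PPARγ peak within 1 kb, beside 336 of the 1602 with a knockout peak (20.97%, 19.1 to 23.0). The distance to PPARγ was in part fixed by the selection, and this difference was not tested.

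In BALB/cJ Veh cells, JunD was found at 1481 of the PPARγ-free loci (78.9%, background 64.9%), ATF3 at 1297 (69.1%, background 53.8%) and Jun at 895 (47.7%, background 33.8%). The lengths of these lists had the same order, with 28652 peaks for JunD, 19506 for ATF3 and 10957 for Jun. With every list cut to 10957 peaks by count, the shares were 48.6% for JunD, 49.3% for ATF3 and 47.7% for Jun. All 3 monomers were present at 733 of the PPARγ-free loci (39.0%) and none at 226 (12.03%). All 3 were present at 50.1% of the PPARγ-bound counterparts and 75.2% of the fully KLA-bound loci, and none at 7.74% and 3.05%. These combined shares were not counted over all Veh loci. The difference from the PPARγ-bound counterparts was -7.59 points for JunD, -6.95 for ATF3 and -9.63 for Jun, with adjusted p of 2.15e-13, 1.59e-08 and 3.07e-12 by Fisher's exact test. Within bins of the Veh count these differences no longer passed the test, with odds ratios of 0.895 (0.774 to 1.04), 0.940 (0.826 to 1.07) and 0.899 (0.801 to 1.01). Whether the knockout and strain comparisons differ from each other was not tested. Against the fully KLA-bound loci the BALB/cJ differences were -16.5, -20.1 and -31.5 points, and they stayed past the threshold within bins, with odds ratios of 0.561, 0.714 and 0.589. With only the 590 of these without a PPARγ peak (chosen after seeing the data) they were -11.1, -12.3 and -18.3 points.

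The strongest locus with no BALB/cJ Veh peak lay between genes near Sik1, a salt-inducible kinase that is itself induced by signals in macrophages, at chr17:31834721-31834964. Its C57BL/6 Veh counts were 145, 58 and 126, and its knockout counts 83, 24 and 101, while no BALB/cJ list with Veh or KLA had a peak there. No BALB/cJ list had a peak at the next loci either. The first of these lay near Tpsab1, a mast cell tryptase gene, with C57BL/6 Veh counts of 113, 40 and 118. The other lay near Coa4, an assembly factor of cytochrome c oxidase, with 203, 35 and 81. Both lay in exons and had knockout peaks of ATF3 and JunD but not of Jun. Among all 226 loci with no BALB/cJ Veh peak, 165 (73.0%) had a BALB/cJ KLA peak, and 61 (3.25% of all PPARγ-free loci) had no peak of ATF3, Jun, JunD, Fos or JunB in BALB/cJ with either treatment. Sequence differences between the strains were not analysed here, and reads were mapped to a different genome in each strain.

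A TRE was the feature that the PPARγ-free loci held more often than their PPARγ-bound counterparts. In the central 200 bp, 662 of 1878 loci (35.3%) held TGACTCA or its reverse complement, beside 26.2% of the counterparts and a background of 26% of all Veh loci. The difference was 9.08 points (6.62 to 11.6, exact test, adjusted p = 8.77e-13), and within bins of the Veh count the odds ratio was 1.82 (1.62 to 2.05). Of the 24 measures compared with the counterparts, 17 passed the threshold, and the TRE was the only 1 of these that was higher at the PPARγ-free loci. Against the fully KLA-bound loci 17 also passed, of which 4 were higher (the CRE, the Sp1 site, the E-box and a TSS within 1 kb). The fully KLA-bound loci held a TRE more often still, at 55.9%, a difference of -20.7 points for the PPARγ-free loci (exact test, adjusted p = 5.51e-48). A second TRE or more was present at 56 of the PPARγ-free loci (2.98%), and the nearest TRE was 18.5 bp from the centre of the locus at the median.

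From 1 KLA peak upward, the share with a TRE was higher at loci with more KLA peaks. It was 17.2% at the 93 loci with no KLA peak (10.9 to 26.1), 15.0% with 1, 20.99% with 2, 31.0% with 3, 42.5% with 4 and 47.2% at the 563 with 5 (43.2 to 51.4). The PPARγ-bound counterparts showed the same order at a lower level, from 9.09% with no KLA peak to 37.8% with 5. The Veh strength of the PPARγ-free loci rose along with the number of KLA peaks. The lowest of the 3 Veh percentiles of a locus had a median of 14.3 with no KLA peak and 45.3 with 5. The number of KLA peaks is part of the selection, and these shares by number are given with no test. Stratified by the number of KLA peaks, which was chosen after seeing the data, the Mantel-Haenszel odds ratio of a TRE was 1.77 (1.57 to 2.00). A KLA peak of Fos was present at 85.0% of the PPARγ-free loci with a TRE and at 53.5% of those without (background 52.8%). For FosL2 these shares were 28.5% and 14.0% (background 26.8%). Neither was tested, since these KLA calls also chose the loci.

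**Figure D4:**
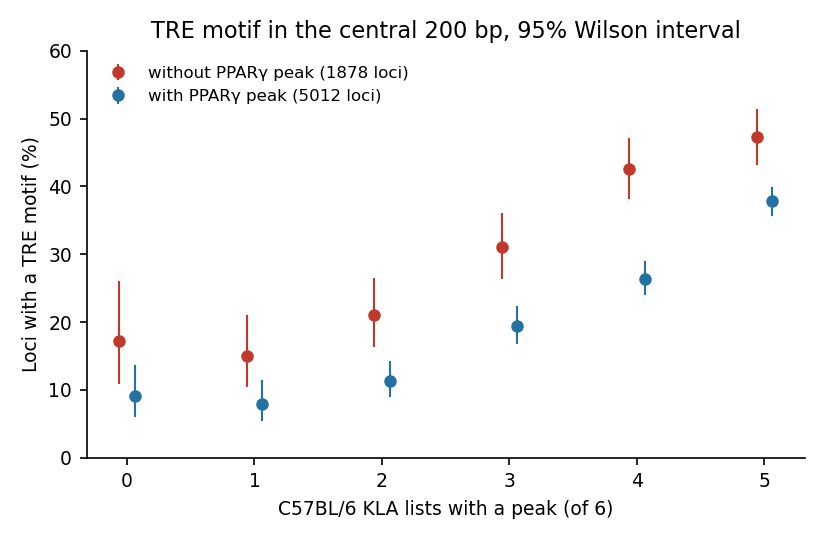
Percentage of loci with a TRE in the central 200 bp (y axis) by the number of C57BL/6 KLA lists with a peak (x axis), for the PPARγ-free loci (red) and the PPARγ-bound counterparts (blue); lines are 95% Wilson intervals. The red points run from 15.0% to 47.2% and lie above the blue points at each number of lists.

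The other AP-1 sites were rare. The CRE was found at 44 PPARγ-free loci (2.34%, background 1.84%) and the CEBP-ATF composite at 35 (1.86%, background 3.42%), and neither differed from the counterparts past the threshold, with differences of -0.332 points (-1.10 to 0.557) and 0.0274 points (-0.636 to 0.820). The CRE was more frequent than at the fully KLA-bound loci, at 2.34% against 0.845% (exact test, adjusted p = 1.82e-05), but not past the threshold with only the 590 of these without a PPARγ peak (1.33 points, exact test, adjusted p = 0.0832). A TRE, CRE or composite site was present at 731 loci (38.9%), so at most PPARγ-free loci these exact letters were not in the central 200 bp. The CEBP site (TTGCGCAA, TTGCACAA or TTGCATAA) was found at 5.86% (background 5.09%), the PU.1 site (ACTTCCT) at 22.4% (background 21.7%), the Runx site (TGTGGTT) at 7.35% (background 7.37%) and the ISRE (a repeat of GAAA with 2 bases between) at 2.66% (background 3.03%), with no difference from the counterparts past the threshold. The PU.1 site did pass, as less frequent, with a scaled IDR score of at least 830 in every list (-3.72 points, exact test, adjusted p = 0.0107) and with the 50% of peaks with the highest counts (-5.34 points, adjusted p = 0.00106). All motifs were searched on both strands of the same 200 bp, independently, and matches may overlap.

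Several sites were less frequent than at the PPARγ-bound counterparts. The GC-rich Sp1 site (CCCCGCCC) was found at 3.19% against 5.31% (background 5.35%, exact test, adjusted p = 0.000301), the E-box TCACGTG at 2.77% against 4.57% (background 3.5%, adjusted p = 0.00103), and the kappa B site (GGG and TTTCC with 2 bases between) at 6 loci, 0.319% against 0.998% (background 1.16%, adjusted p = 0.00575). These calls depended on the setting. With the 50% of peaks with the highest counts none of the 3 passed, with exact test adjusted p of 0.0832 for Sp1, 0.416 for the E-box and 0.472 for kappa B. At least 3 kb from a TSS, the E-box (adjusted p = 0.0651) and kappa B (0.152) did not pass by the exact test. The fully KLA-bound loci lay on the other side for Sp1, at 1.85% (1.34 points higher at the PPARγ-free loci, exact test, adjusted p = 0.00355), and for the E-box, at 1.83% (0.942 points, exact test, adjusted p = 0.0343), and neither of these passed within bins of the Veh count. For kappa B they were higher, at 2.02% (-1.70 points for the PPARγ-free loci, exact test, adjusted p = 6.13e-08). Within bins the kappa B odds ratio was 0.0826 (0.0286 to 0.239). AGGTCA, the hexamer read by PPARγ and other nuclear receptors, was found at 16.8% against 19.6% (background 16.5%, exact test, adjusted p = 0.0133), a difference that did not pass within bins of the Veh count (odds ratio 0.886, 0.768 to 1.02). The direct repeat of that hexamer with 1 base between the copies, which is the usual PPARγ element and contains the hexamer, was found at 0 of 1878 loci, which allows a share of up to 0.160%, beside 0.0474% of all Veh loci.

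PU.1 and CEBPα were found at a smaller share of the PPARγ-free loci than of the PPARγ-bound counterparts. A PU.1 Veh peak was present at 1074 (57.2%, background 56.8%), beside 71.5% of the counterparts (-14.3 points, -16.8 to -11.7, exact test, adjusted p = 8.65e-28). CEBPα was present at 708 (37.7%, background 32.3%), beside 47.0% (-9.35 points, -11.9 to -6.74, exact test, adjusted p = 8.15e-12). Within bins of the Veh counts the odds ratios were 0.589 for PU.1 and 0.809 for CEBPα, both past the threshold. Against the fully KLA-bound loci the differences were -12.6 and -13.2 points, but these did not remain. Within bins the odds ratios were 0.884 (0.770 to 1.01) and 1.06 (0.925 to 1.22), and with only the fully KLA-bound loci that had no PPARγ peak (chosen after seeing the data) the differences were 1.09 points (-3.46 to 5.69) and 3.63 points (-0.843 to 7.95).

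PU.1 and CEBPα peaks were less frequent where a TRE was present, which is given with no test. Of the PPARγ-free loci with a TRE, 43.4% had a PU.1 Veh peak and 23.7% a CEBPα Veh peak, and of those without a TRE, 64.7% and 45.3%. Fos, FosL2 and JunB had short Veh lists of 1804, 5329 and 463 peaks. FosL2 was found at 255 PPARγ-free loci (13.6%, background 16.2%) against 28.1% of the counterparts (exact test, adjusted p = 6.61e-38), Fos at 44 (2.34%, background 4.12%) against 5.01%, and JunB at 17 (0.905%, background 1.15%) against 1.98%. The FosL2 difference remained within bins (odds ratio 0.497), while that of JunB did not (odds ratio 0.677, 0.399 to 1.15), nor with the 50% of peaks with the highest counts (exact test, adjusted p = 0.0832).

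After KLA, PU.1 was found at 1094 PPARγ-free loci (58.3%, background 59.8%) and CEBPα at 671 (35.7%, background 33.5%). Of the loci with a Veh peak, 946 of 1074 kept PU.1 (88.1%) and 527 of 708 kept CEBPα (74.4%). Both were kept less often where few AP-1 KLA peaks were present. CEBPα was kept at 11 of 28 loci with no AP-1 KLA peak (39.3%, 23.6 to 57.6) and at 182 of 216 with 5 (84.3%, 78.8 to 88.5). For PU.1 these shares were 70.4% (57.2 to 80.9) and 93.9% (90.8 to 96.0), and the lowest was 67.8% at loci with 1 AP-1 KLA peak. At loci without the Veh peak, CEBPα appeared at 1 of 65 with no AP-1 KLA peak (1.54%) and at 83 of 347 with 5 (23.9%). The number of AP-1 KLA peaks is part of the selection, and these shares are given with no test. Kept and new peaks of PU.1 and CEBPα were not counted at other Veh loci. Whether these shares are particular to the PPARγ-free loci is therefore not known.

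**Figure D5:**
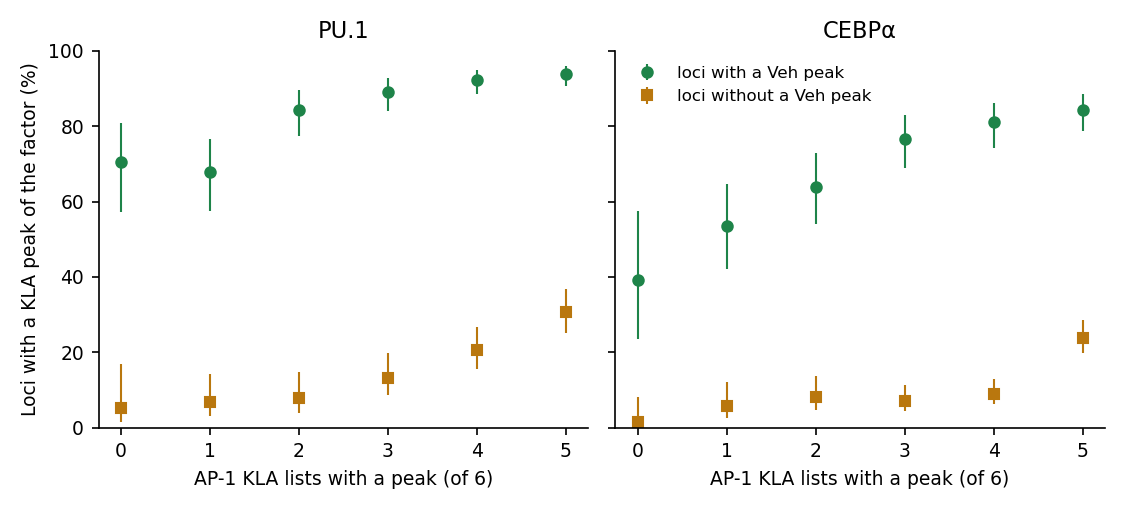
Percentage of the PPARγ-free loci with a KLA peak of PU.1 (left) or CEBPα (right) on the y axis, by the number of AP-1 KLA lists with a peak (x axis), for loci with a Veh peak of the factor (green circles) and without (brown squares); lines are 95% Wilson intervals. The green points run from 39.3% to 84.3% for CEBPα, and the brown points reach 23.9% for CEBPα and 30.6% for PU.1 at loci with 5 AP-1 KLA peaks.

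By position, the PPARγ-free loci were mostly distal, as were all Veh loci. Introns held 1014 (54.0%, background 52.6%), intergenic sequence 719 (38.3%, background 38.2%) and exons 145 (7.72%, background 9.18%). The nearest protein-coding TSS was 20487 bp away at the median, beside 15213 bp for all Veh loci. Within 1 kb of a TSS lay 202 loci (10.8%), against a background of 18%, 16.5% of the PPARγ-bound counterparts (-5.72 points, -7.41 to -3.94, exact test, adjusted p = 2.73e-09) and 6.73% of the fully KLA-bound loci (4.02 points, 2.45 to 5.69, adjusted p = 6.91e-07). The second difference did not pass within bins of the Veh count (odds ratio 1.25, 0.995 to 1.58). Between 10 and 100 kb from a TSS lay 1033 loci (55.0%, background 48.2%). The GC content of the central 200 bp was 47% at the median, beside 49% for the counterparts.

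The strongest of the loci near a TSS lay at Ifitm6, in an exon 36 bp downstream of the TSS, at chr7:141016719-141017025. Its Veh counts were 203, 55 and 113, it had both PU.1 (count 530) and CEBPα (count 154) with Veh, and after KLA it lacked FosL2 alone. The next lay at Dusp13, a dual-specificity phosphatase gene (128, 53 and 119), and 812 bp upstream of Hmga1, an architectural chromatin protein (126, 44 and 98). Both had all 3 knockout peaks, all 3 BALB/cJ Veh peaks and 5 of the 6 KLA peaks. The Hmga1 locus lay 150 bp from a PPARγ peak.

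The nearest genes numbered 1496, of which 1215 had 1 PPARγ-free locus, 210 had 2 and 71 had 3 or more. Lpp had the most, with 7 of its 53 Veh loci. Foxp1, a forkhead factor, had 6 of 26, Klf4, a factor of monocyte differentiation, 6 of 35, Klf6 6 of 55 and Ubash3b, a tyrosine phosphatase, 6 of 24. Mgat5, a glycosyltransferase that branches N-glycans, had 5 of 15 and Nrp1, a co-receptor of semaphorins and VEGF, 5 of 27. Gene length was not taken into account, and no count was tested.

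Pparg, the gene of PPARγ, was itself the nearest gene of 6 PPARγ-free loci out of 19 Veh loci, with 3 PPARγ-bound counterparts beside them. Upstream of its TSSs, loci lay at 47589, 44965, 26265 and 11002 bp, and within the gene at 2576 and 58907 bp downstream. The locus with the highest ATF3 Veh count was that in the intron at chr6:115424486-115424799, with counts of 193, 20 and 45 for ATF3, Jun and JunD, and it carried CEBPα with Veh (count 173) and kept ATF3, Jun and JunD after KLA. The locus at chr6:115315843-115316130, whose sequence is printed above, had Veh counts of 103, 18 and 45 and was the only one of the 6 with a knockout peak of each monomer (56, 16 and 44). It had a peak of every monomer but FosL2 after KLA. The locus at chr6:115313227-115313498 had counts of 82, 14 and 44 and lacked FosL2 and JunB after KLA. The remaining 3 each had KLA peaks of 2 monomers, ATF3 with JunD or with Fos. A knockout peak of ATF3 was found at 4 of the 6, of JunD at 4 and of Jun at 1.

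For each of 10 lists of macrophage genes, the background share lay within the 95% interval of the share of PPARγ-free loci nearest to its genes. Lineage transcription factors were nearest to 26 PPARγ-free loci (1.38%, background 1.31%), led by Klf4, Klf6 and Zeb2, and AP-1 and ATF genes to 11 (0.586%, background 0.511%), among them Jun and Maf with 3 loci each and Atf3 with 1. Genes of lipid handling and PPARγ or LXR targets were nearest to 9 (0.479%, background 0.535%), of which 6 belonged to Pparg and 1 each to Apoe and Apoc2. The cytokine and chemokine list had 7 loci (0.373%, background 0.389%), with 2 at Ccl6 and 1 each at Ccl4 and Cxcl1. For the TLR and NFκB pathway there were 10 (0.532%, background 0.491%), with 2 each at Nfkbiz and Tnfaip3, which encode feedback regulators of NFκB, and 1 at Ly96, the TLR4 co-receptor. MAP kinase genes and dual-specificity phosphatases had 12 (0.639%, background 0.633%), with 2 each at Dusp1 and Dusp6 and 1 at Dusp10.

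Surface receptors and integrins had 21 loci (1.12%, background 0.934%), with 2 each at Ccr1, Cd44 and Cd9. Matrix proteases and remodelling genes had 14 (0.745%, background 0.494%), with 3 each at Mmp12, the macrophage elastase, and Thbs1, and 2 at Ctsb. Actin and podosome genes had 11 (0.586%, background 0.782%), with 3 at Arhgap18 and 1 each at Arhgap22 and Dock2. Lysosome, autophagy and iron genes had 12 (0.639%, background 0.545%), with 3 at Atp6v1b2, 2 at Lamp2 and 1 at Atp6v1a. No list was tested.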

How the data were processed

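By the study's methods, the authors aligned reads with Bowtie2 (mm10 for C57BL/6, a BALB/cJ genome shifted to mm10 coordinates), called peaks with HOMER (size 200) against input, and removed peaks with an irreproducible discovery rate (IDR) of 0.05 or more over replicates. Each deposited peak has a count, whose combination over replicates is not given in the sources used here, and a scaled IDR score. Of 34 samples, 30 had a list. The 4 inputs and the empty BALB/cJ Fos Veh list were not used, and the BALB/cJ JunB Veh list (9 peaks) entered no comparison. Counts summed to between 9196 and 13809143 in the 28 lists used.

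The loci, gene lists, motifs and tests were chosen with earlier results of these data known. A peak counted where it overlapped a locus by 1 bp or more. Genes and TSSs came from GENCODE vM21 (protein-coding transcripts). Shares have 95% Wilson intervals, which cover counting error only. They were compared by two-sided Fisher's exact tests with Benjamini-Hochberg adjustment in 2 families of 24 tests, with a Newcombe interval for the difference, and by Mantel-Haenszel odds ratios in 10 bins of Veh count, where 1 motif gave no value. The bins used the Veh count of the same monomer for knockout and BALB/cJ peaks, and the lowest Veh percentile of a locus for the other measures. A planned test of the BALB/cJ KLA shares is not reported, because C57BL/6 KLA calls that chose the loci also split them. Named loci had the highest value of their lowest within-list percentile over ATF3, Jun and JunD: 8 among all loci, and 3 each with no KLA peak, with ATF3, Jun and JunD alone, lacking FosL2 alone, with no knockout peak, with no BALB/cJ Veh peak, or within 1 kb of a TSS. Chromosome 18 was left out of named loci. The 8 genes with the most loci and the 3 with the most in each gene list were also named. Python 3.11.15, pandas 2.3.3 and scipy 1.17.1 were used, and the functions were tested on simulated data.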

Additional observations from a re-analysis of the deposited data

How the results depend on the processing

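No paired analysis was possible because each condition had 1 list with replicates already combined, and no replicate could be left out for the same reason. Of 168 tests of the main measures (knockout, BALB/cJ, PU.1, CEBPα, FosL2, TRE and TSS) under other settings, 160 kept their direction and their side of the threshold and 8 did not. Of 214 tests of the other motifs and of Fos and JunB, 165 did and 49 did not: 22 no longer passed, 7 newly passed and 20 changed sign. Both counts include the setting that cut the knockout and BALB/cJ lists to the shortest. That setting altered only the ATF3 and JunD lists, so its differences for Jun, PU.1, CEBPα, Fos, FosL2, JunB, all motifs and TSS could not change. Within bins of Veh count, the odds ratios against the PPARγ-bound counterparts no longer passed for BALB/cJ ATF3 (0.940), Jun (0.899) and JunD (0.895), nor did those against the fully KLA-bound loci for PU.1 (0.884) and a TSS within 1 kb (1.25), while CEBPα turned to 1.06. Against fully KLA-bound loci without a PPARγ peak, a setting chosen after seeing the data, PU.1 turned to 1.09 points, CEBPα to 3.63 and AGGTCA to 1.06. The cause was not tested. With the 50% of peaks with the highest counts, 1085 loci remained, and with a scaled IDR score of at least 830, 3.94% had no KLA peak. The TRE and knockout differences from the counterparts passed under each setting run.

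Among motif calls against the counterparts, adjusted p for the E-box was 0.0587 with 50% reciprocal overlap, 0.416 with the strongest 50% and 0.0651 at 3 kb or more from a TSS. For kappa B it was 0.0931 with the score limit, 0.472 with the strongest 50%, 0.189 in the central 100 bp, 0.152 at 3 kb or more from a TSS and 0.0503 for loci over 1 kb from a PPARγ peak (chosen after seeing the data). Against the fully KLA-bound loci, Sp1 no longer passed with the score limit (0.0914), the strongest 50% (0.207), in bins (0.349) or in the central 100 bp (0.649), and the E-box with the score limit (0.147), in bins (0.239) or without a PPARγ peak in the fully KLA-bound loci (1). JunB no longer passed there in bins (0.140) or without a PPARγ peak in those loci (0.123). Newly past the threshold there were AGGTCA with peak centres within 100 bp (0.0137) or 50% reciprocal overlap (0.0455), the composite site with the strongest 50% (0.00953), and the CEBP site in bins (0.0438) and in the central 100 bp (0.0412). All these are adjusted p of exact or Mantel-Haenszel tests.

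Motif differences that had not passed the threshold also changed sign. Against the counterparts, the composite site was at -0.112 points with peak centres within 100 bp, -0.0884 with 50% reciprocal overlap, -0.360 with the score limit, -1.01 with the strongest 50%, -0.0306 at 3 kb or more from a TSS and -0.0420 for loci over 1 kb from a PPARγ peak (chosen after seeing the data), with an odds ratio of 0.977 in bins. Runx was at 0.433 with the score limit and 0.00736 with the strongest 50%, where the ISRE was at -0.902, and the CRE was at 0.00783 at 3 kb or more from a TSS. Against the fully KLA-bound loci, Runx was at 0.350 with the score limit, 0.675 with the strongest 50% and 0.0354 in the central 100 bp, the ISRE at 0.0244 with the score limit and 0.207 in the central 100 bp, and the PU.1 site at -0.767 with the strongest 50%. In bins, the composite site had an odds ratio of 1.004 and AGGTCA of 1.006. List length limits the shares: with knockout or BALB/cJ lists cut to the shortest, the ATF3 share was 15.0% and 49.3%.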

Other observations

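Neighbouring loci within 10 kb are given with the size of each set of neighbours, on which the shares depend, and they are not compared with each other. Any of 29551 other ATF3, Jun or JunD Veh loci lay within 10 kb of 1300 PPARγ-free loci (69.2%). Any of 1877 other PPARγ-free loci lay within 10 kb of 208 (11.1%), any of 5012 PPARγ-bound counterparts of 476 (25.3%) and any of 3668 fully KLA-bound loci of 378 (20.1%). Repeats covered over 50% of the central sequence at 70 loci (3.73%).

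Knockout and BALB/cJ calls were missing together at some loci. Of the 276 loci with no knockout peak, 57 (20.7%) also had no BALB/cJ Veh peak, beside 169 of the 1602 with a knockout peak (10.5%). All 3 knockout and all 3 BALB/cJ Veh peaks were found at 108 loci (5.75%). Of the loci with a knockout JunD peak, 713 of 792 (90.03%) also had a knockout ATF3 peak. These shares were not tested.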
